A study of Mus musculus with 24 samples.

Results

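Schwann cells are the glia of peripheral nerve, whose branches run through skeletal muscle, so that RNA of whole gastrocnemius, the large calf muscle, also holds their transcripts. The genes described here were the 8 rows of the count table named Sox10, Pmp22, Mbp, Mag, Prx, Cnp, S100b and Egr2, out of 43346 genes. All 8 passed the filter on low counts that left 17773 genes for testing. The muscle came from C57BL6 mice that were 7 weeks old when LLC1 cells, or saline (PBS) as the vehicle, were placed under the skin, and it was taken 3 weeks later. The cell line LLC1 derives from a Lewis lung carcinoma of the mouse and is used as a model of muscle wasting with cancer. The 4 groups were female LLC1, female vehicle, male LLC1 and male vehicle, with 6 mice in each. Nothing in the labels says that cells or animals were pooled.

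Sox10 and Egr2 are transcription factors of the Schwann cell lineage: Sox10 is present from the neural crest onward, and Egr2 switches on the myelin programme. The genes they act on include those for the membrane proteins that compact the sheath (Pmp22, Mbp) and for the proteins that attach it to the axon and to the basal lamina (Mag, Prx). Changes in the dose or sequence of several of these genes cause inherited neuropathy in people. Here they are read as markers of nerve branches in skeletal muscle. Which cells of the muscle each transcript came from was not tested. In bulk tissue, fewer cells of a type and less RNA per cell cannot be told apart.

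Depth was 26.2 to 47.4 M (mega-counts) per library. Levels are given as CPM (counts scaled to a library of 1 M after TMM normalization) and as RPKM (CPM per kilobase of the length in the authors' table) where genes are set against each other. The descriptions give 1 sequencing lane to each group, a different one for every group, and in each comparison below the effect of lane cannot be told apart from that of the groups. Muscle fibre markers dominated all 24 libraries: their 6 genes summed to 117300 to 185100 CPM. Neutrophil markers summed to 98.0 CPM in female LLC1 mice against 2.45 CPM in female vehicle mice, and to 122 CPM in male LLC1 mice against 2.60 CPM in male vehicle mice. Markers of the axon were sparse: 6 of 10 fell under the filter, and Chat, the acetylcholine-synthesising enzyme of motor neurons, had no count in any library.

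Per length, Pmp22 was the most abundant of the 8 genes at 26.4 ± 10.5 RPKM (SD, n = 24 libraries). Cnp followed at 5.40 ± 0.598 RPKM and Mbp at 4.12 ± 2.10 RPKM, and Cnp was above Mbp in 18 of 24 libraries, so their order was not constant. Prx averaged 2.99 ± 1.32 RPKM, S100b 0.971 ± 0.489 RPKM, Sox10 0.645 ± 0.272 RPKM, Egr2 0.470 ± 0.195 RPKM and Mag 0.221 ± 0.120 RPKM. Pmp22 was above Cnp, Mbp above Prx and Prx above S100b in all 24 libraries. S100b was above Sox10 and Sox10 above Egr2 in 21 of 24, and Egr2 above Mag in 23. The fewest reads stood behind Mag (10 to 93 counts per library), S100b (15 to 160), Egr2 (22 to 136) and Sox10 (22 to 122).

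The promoters of 4 of the genes are shown because 3 of them belong to genes that moved together between mice (Pmp22, Mag, Prx), while the fourth belongs to Cnp, which differed least between the sexes. Each run is the gene's own strand, from 250 bases before an annotated start to 50 bases after it (300 bases in all), from RefSeq on GRCm38.p6. There were 4 such windows for Pmp22, 3 for Mag and 1 each for Prx and Cnp, and the one nearest to the gene start is shown. Capitals mark the matches to ACAAAG and AACAAT, cores of SOX-family sites, and to GCGTGGG, the core of EGR-family sites, searched on both strands. Pmp22 lies at chr11:63128732-63129031 (+), Mag at chr7:30914814-30915113 (-), Prx at chr7:27499074-27499373 (+) and Cnp at chr11:100574689-100574988 (+).
Pmp22: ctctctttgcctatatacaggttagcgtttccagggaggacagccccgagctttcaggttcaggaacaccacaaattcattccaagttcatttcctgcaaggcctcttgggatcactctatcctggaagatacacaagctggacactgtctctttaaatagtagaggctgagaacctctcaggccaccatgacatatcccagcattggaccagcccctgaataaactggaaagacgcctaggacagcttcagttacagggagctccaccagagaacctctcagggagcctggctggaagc
Mag: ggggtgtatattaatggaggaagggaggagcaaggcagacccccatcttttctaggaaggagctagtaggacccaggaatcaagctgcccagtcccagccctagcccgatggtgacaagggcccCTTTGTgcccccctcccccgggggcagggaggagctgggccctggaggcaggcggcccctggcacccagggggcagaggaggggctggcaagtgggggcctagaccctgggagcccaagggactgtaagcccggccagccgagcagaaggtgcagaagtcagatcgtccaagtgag
Prx: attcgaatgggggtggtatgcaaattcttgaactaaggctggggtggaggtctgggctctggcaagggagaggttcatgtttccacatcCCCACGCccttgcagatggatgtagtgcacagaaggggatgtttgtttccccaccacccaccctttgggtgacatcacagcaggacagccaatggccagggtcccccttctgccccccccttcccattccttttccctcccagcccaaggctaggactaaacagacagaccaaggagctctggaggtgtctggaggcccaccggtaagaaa
Cnp: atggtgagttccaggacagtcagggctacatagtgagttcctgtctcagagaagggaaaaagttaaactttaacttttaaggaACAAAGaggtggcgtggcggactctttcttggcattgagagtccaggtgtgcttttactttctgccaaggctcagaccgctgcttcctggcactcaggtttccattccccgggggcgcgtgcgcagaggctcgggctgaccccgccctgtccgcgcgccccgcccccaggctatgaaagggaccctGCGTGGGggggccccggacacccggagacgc
The Pmp22 window shown held none of the 3 motifs, and the other windows of Pmp22 and Mag are not described. The Mag window held ACAAAG once, on the opposite strand at bases 125 to 130 of the run. The Prx window held GCGTGGG once, on the opposite strand at bases 90 to 96. The Cnp window held ACAAAG at bases 84 to 89 and GCGTGGG at bases 270 to 276, both on the gene's strand. No 2 matches overlapped. Over all 32851 windows of the table, 18.7% held ACAAAG, 10.7% AACAAT and 5.04% GCGTGGG on either strand. The window nearest to the gene start of S100b and that of Egr2 held none of the 3.

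The first question of the study was what an LLC1 tumour does to muscle in each sex. Of the 8 genes, 0 were called higher and 0 lower in LLC1 than in vehicle females at an adjusted p under 0.05 with edgeR, and 0 had an unadjusted p under 0.05; DESeq2 also called 0. The background was 4.97% of all genes tested called higher and 4.95% called lower. In males 0 of the 8 were called by edgeR or by DESeq2, with Cnp alone at an unadjusted p under 0.05, against 19.5% of all genes called higher and 16.8% lower. The median log2 fold change of the 8 genes was -0.15 in females and -0.17 in males, beside -0.01 and 0.01 over all genes tested. Averaged over the sexes, Cnp was called lower and none of the others passed in either direction, where 21.2% of all genes were called higher and 20.2% lower. The LLC1 effect in females minus that in males was called for 0 of the 8, and the share of all genes called in that comparison was 0.0% with edgeR. There, 2191 genes and 0 of the 8 had an unadjusted p under 0.05, and DESeq2 called 44 genes.

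The second comparison was between the sexes. In vehicle mice, 5 of the 8 genes were higher in females than in males (Sox10, Pmp22, Mbp, Mag and Prx) and 0 were lower, where 2.95% of all genes tested were called higher and 3.28% lower in females. The median log2 difference of the 8 was 0.85, beside 0.01 over all genes. In LLC1 mice, a comparison added after seeing the data, the same 5 genes and S100b were higher in females, where the background was 6.07% higher and 9.62% lower, and the median was 0.94. The fitted fold of the genes called ran between 1.77 for Prx and 2.32 for Mag in vehicle mice, and between 1.65 for Pmp22 and 2.40 for Mag in LLC1 mice. Since the sexes differ in lane as well, a difference of sex and a difference of lane cannot be told apart here.

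**Figure D1:**
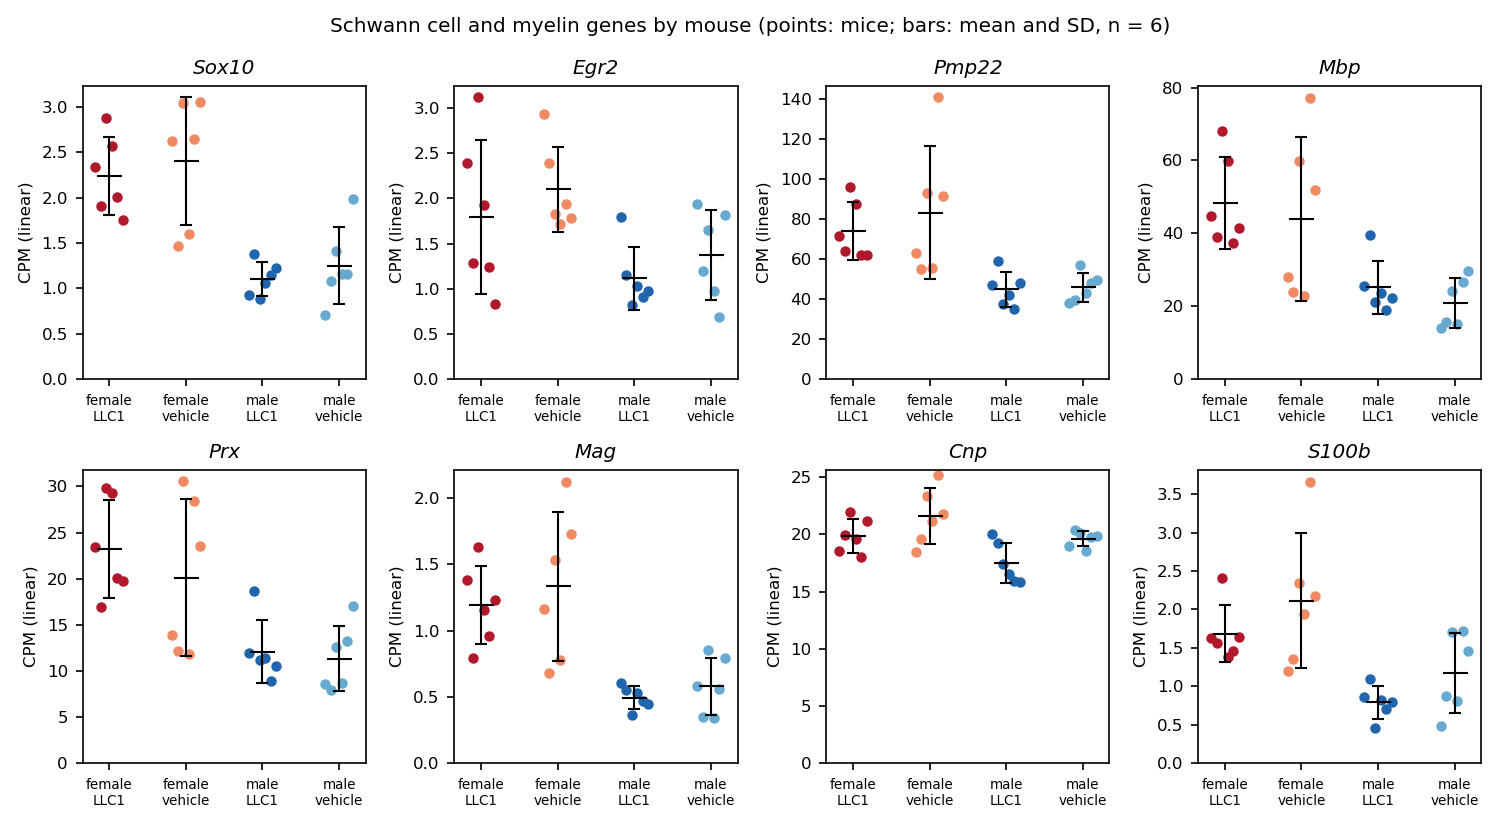
Level of each gene in CPM (y axis, linear, from 0) in each of 24 mice, by group; points are mice, bars the mean and SD of 6. Female mice sit above male mice for Sox10, Pmp22, Mag and S100b in the LLC1 groups with no overlap, while LLC1 and vehicle mice of one sex overlap for every gene.

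Among the transcription factors, Sox10 had a lowest, median and highest level of 1.75, 2.17 and 2.88 CPM in female LLC1 mice, against 1.46, 2.64 and 3.05 CPM in female vehicle mice. In males it had 0.888, 1.10 and 1.38 CPM with LLC1 and 0.709, 1.16 and 1.99 CPM with vehicle. LLC1 and vehicle mice overlapped in both sexes, whereas every female LLC1 mouse lay above every male LLC1 mouse. The log2 difference of females from males was 1.01 ± 0.21 with LLC1 (SE, adjusted p = 0.00301) and 0.95 ± 0.21 with vehicle (adjusted p = 0.00676), and both calls held with any library left out. The LLC1 change was -0.11 ± 0.20 in females (adjusted p = 0.781) and -0.17 ± 0.22 in males (adjusted p = 0.564).

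Egr2, which drives myelination, had 0.837, 1.61 and 3.12 CPM in female LLC1 mice and 1.71, 1.88 and 2.93 CPM in female vehicle mice as lowest, median and highest. Male LLC1 mice had 0.826, 1.00 and 1.79 CPM and male vehicle mice 0.688, 1.42 and 1.93 CPM. Female and male mice overlapped in both comparisons, and neither passed (0.69 ± 0.28 with LLC1, adjusted p = 0.0910, and 0.62 ± 0.27 with vehicle, adjusted p = 0.196). Without female LLC1 mouse 2-5 or male LLC1 mouse 1-4 the LLC1 comparison passed (adjusted p = 0.0342 and 0.0322). Its LLC1 change was -0.23 ± 0.27 in females and -0.30 ± 0.29 in males.

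Among the proteins of compact myelin, Pmp22, a membrane protein whose gene dose decides whether nerves myelinate normally in people, had 62.2, 67.8 and 96.2 CPM in female LLC1 mice and 55.3, 77.4 and 141 CPM in female vehicle mice. Male LLC1 mice had 35.3, 44.8 and 59.0 CPM and male vehicle mice 38.0, 45.7 and 57.4 CPM. The lowest female LLC1 mouse was above the highest male LLC1 mouse, and among vehicle mice the sexes overlapped narrowly. Females exceeded males by 0.72 ± 0.19 with LLC1 (adjusted p = 0.0143) and by 0.86 ± 0.19 with vehicle (adjusted p = 0.00827) on the log2 scale, with any library left out too. With LLC1, Pmp22 differed by -0.17 ± 0.19 in females and -0.04 ± 0.19 in males (adjusted p = 0.616 and 0.907), and the sign in females rested on female vehicle mouse 2-2, without which it was 0.06.

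Mbp, the cytoplasmic protein that draws the inner faces of the membrane together, had 37.4, 43.1 and 68.2 CPM in female LLC1 mice. The 6 female vehicle mice lay at 22.8, 23.9, 28.0, 51.9, 59.9 and 77.3 CPM, with a gap in the middle. Male LLC1 mice had 19.0, 23.0 and 39.4 CPM and male vehicle mice 14.1, 20.0 and 29.8 CPM as lowest, median and highest. Females exceeded males by 0.94 ± 0.28 with LLC1 (adjusted p = 0.0276, with 1 male in the female range) and by 1.07 ± 0.29 with vehicle (adjusted p = 0.0264). The vehicle call was lost without female vehicle mouse 1-4, 2-2 or 2-3 or male vehicle mouse 1-1, 1-2 or 1-4 (adjusted p up to 0.0932), with no filter on low counts (0.0632) and with only the 2 groups in the fit (0.0872). The LLC1 call was lost without female LLC1 mouse 2-1 or 2-3 or male LLC1 mouse 2-1 or 2-4 (adjusted p up to 0.0732) and with no filter (0.0622). The LLC1 change of Mbp was 0.14 ± 0.28 in females and 0.27 ± 0.28 in males (adjusted p = 0.807 and 0.484).

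Prx encodes periaxin, which links the Schwann cell surface through Drp2 and dystroglycan to the basal lamina. It had 16.9, 21.7 and 29.8 CPM in female LLC1 mice and 11.8, 18.8 and 30.6 CPM in female vehicle mice, and 8.93, 11.3 and 18.7 CPM in male LLC1 mice, against 7.92, 10.6 and 17.0 CPM in male vehicle mice. Only 1 male LLC1 mouse (1-5) reached the female LLC1 range. Females exceeded males by 0.94 ± 0.25 with LLC1 (adjusted p = 0.0138), a call that held with any library left out. With vehicle the difference was 0.83 ± 0.25 (adjusted p = 0.0491). That call held only without female vehicle mouse 1-1, 1-3 or 2-1, male LLC1 mouse 1-5 or male vehicle mouse 2-5, and was lost without each of the other 19 libraries (adjusted p up to 0.144), with RLE size factors (0.0534), with no filter (0.115) and with only the 2 groups in the fit (0.111). The LLC1 change was 0.21 ± 0.24 in females and 0.09 ± 0.25 in males (adjusted p = 0.645 and 0.803). Of the exon length of Prx, 5.38% overlaps Gm15541 on the other strand, which had 0.094 times as many counts, and the kit kept no strand.

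Mag, an adhesion protein of the membrane that faces the axon, had 0.797, 1.19 and 1.63 CPM in female LLC1 mice and 0.681, 1.35 and 2.12 CPM in female vehicle mice. Male LLC1 mice had 0.367, 0.499 and 0.608 CPM and male vehicle mice 0.340, 0.571 and 0.853 CPM. Mag showed the largest difference between the sexes among the 8 genes in both comparisons: 1.26 ± 0.27 with LLC1 (adjusted p = 0.00382) and 1.22 ± 0.27 with vehicle (adjusted p = 0.00670), with any library left out too. The LLC1 groups did not overlap between the sexes and the vehicle groups did. With LLC1 it differed by -0.17 ± 0.25 in females and -0.22 ± 0.29 in males (adjusted p = 0.708 and 0.578), and the sign in females rested on female vehicle mouse 2-2, without which it was 0.03.

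Cnp encodes a cyclic nucleotide phosphodiesterase that keeps open the cytoplasmic channels of the sheath. It had 18.0, 19.8 and 22.0 CPM in female LLC1 mice and 18.4, 21.5 and 25.1 CPM in female vehicle mice, and 15.8, 16.9 and 20.0 CPM in male LLC1 mice, against 18.6, 19.8 and 20.3 CPM in male vehicle mice. Its SD over the 24 libraries was the smallest of the 8 relative to the mean, and it was the only one called with LLC1, at -0.14 ± 0.05 averaged over the sexes (adjusted p = 0.0350), -0.12 ± 0.08 in females (adjusted p = 0.334) and -0.17 ± 0.08 in males (adjusted p = 0.0891). In males 5 of 6 LLC1 mice, and in females 5 of 6, were below the vehicle median. The averaged call held only when female LLC1 mouse 2-1 or 2-5, male LLC1 mouse 1-4 or 1-5, female vehicle mouse 1-1 or 1-3, or male vehicle mouse 1-1, 1-4, 2-4 or 2-5 was left out. It was lost without each of the other 14 libraries (adjusted p up to 0.0925), with DESeq2 (0.0522) and with no filter (0.0727). Females and males differed by 0.18 ± 0.08 with LLC1 (adjusted p = 0.0962) and 0.14 ± 0.08 with vehicle (adjusted p = 0.310). Without male LLC1 mouse 1-4, both the difference between the sexes with LLC1 (adjusted p = 0.0383) and the LLC1 change in males (adjusted p = 0.0347) passed. Of its exon length 4.23% overlaps Dnajc7 on the other strand, a co-chaperone gene with 4.06 times as many counts, and how much of the Cnp count comes from there was not tested. Dnajc7 itself differed by -0.05 ± 0.05 with LLC1 averaged over the sexes (adjusted p = 0.502).

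S100b, a calcium-binding protein used as a Schwann cell marker, had 1.39, 1.60 and 2.41 CPM in female LLC1 mice and 1.21, 2.06 and 3.65 CPM in female vehicle mice. Male LLC1 mice had 0.459, 0.813 and 1.10 CPM and male vehicle mice 0.483, 1.17 and 1.72 CPM. All female LLC1 mice lay above all male LLC1 mice, with a difference of 1.08 ± 0.28 (adjusted p = 0.0123) that held with any library left out. In vehicle mice the difference was 0.85 ± 0.27 and did not pass with edgeR (adjusted p = 0.0646). It passed with DESeq2 (0.0401) and without female vehicle mouse 1-1 or 1-3 or male vehicle mouse 1-3 (down to 0.0356). S100b had the most negative LLC1 values of the 8: -0.33 ± 0.26 in females (adjusted p = 0.465), -0.57 ± 0.29 in males (0.134) and -0.45 ± 0.20 averaged over the sexes (0.0716). In males 0 of 6 LLC1 mice were above the vehicle median, and in females 1 of 6 was. The averaged value passed when female vehicle mouse 1-1 or 1-3, male vehicle mouse 1-1 or female LLC1 mouse 2-1 was left out (adjusted p down to 0.0265), and that in males without male vehicle mouse 1-1 (0.0480).

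**Figure D2:**
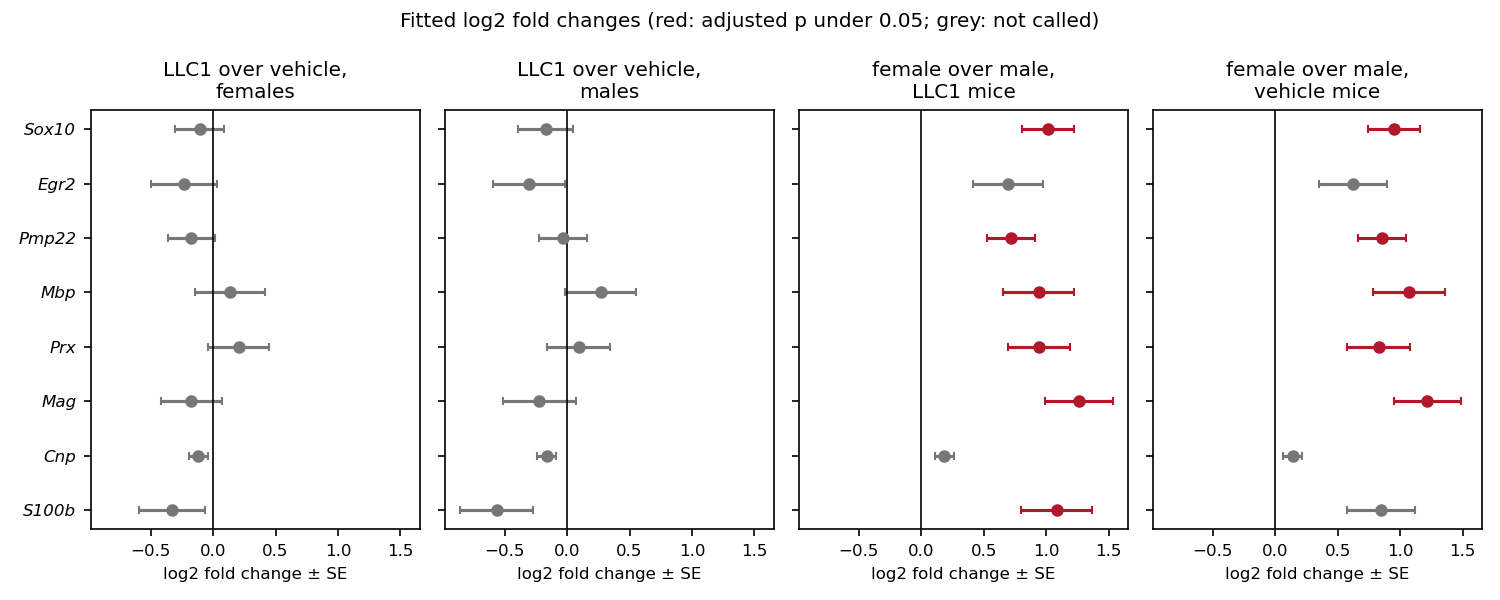
Log2 fold change (x axis) with its SE for the 8 genes in 4 comparisons; red points had an adjusted p under 0.05. All points of the LLC1 panels are grey, and in the sex panels Cnp and Egr2 stay grey while Sox10, Pmp22, Mbp, Prx and Mag are red in both.

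The other genes of the sheath were read from lists. Of 6 further genes for proteins of the sheath's membranes (the compact myelin list), 2 were higher in females than in males among LLC1 mice and 1 among vehicle mice. The list medians were 0.59 and 0.61, where 6.07% and 2.95% of all genes tested were called higher. Mal, a raft protein, was higher in female than in male mice with LLC1 (1.11 ± 0.33, adjusted p = 0.0256) and with vehicle (1.26 ± 0.33, adjusted p = 0.0252), and Pllp was higher in female than in male LLC1 mice (1.12 ± 0.24, adjusted p = 0.00415). With LLC1, 1 of these 6 was lower in each sex, where 4.95% of all genes tested were called lower in females and 16.8% in males. In males the share called lower was thus near that of all genes. The gene was Pmp2, the fatty acid-binding protein of peripheral myelin, at -1.13 ± 0.33 in females (adjusted p = 0.0284) and -1.05 ± 0.36 in males (adjusted p = 0.0257). Its level was low, with group means of 0.306 to 0.955 CPM.

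Of 12 genes for junctions, the node and basal lamina receptors, 6 were higher in females than in males among LLC1 mice and 4 among vehicle mice. The medians were 0.68 and 0.60, where 6.07% and 2.95% of all genes tested were called higher. The largest called differences were Nfasc, the neurofascin of the node and paranode, at 1.15 ± 0.22 with LLC1 (adjusted p = 0.00189) and 0.96 ± 0.23 with vehicle (adjusted p = 0.0107), Drp2 at 1.00 ± 0.26 with vehicle (adjusted p = 0.0241) and Gldn, gliomedin of the node, at 1.07 ± 0.28 with LLC1 (adjusted p = 0.0129). With LLC1, Gjc3, a connexin, was lower in males (-0.53 ± 0.20, adjusted p = 0.0414), and it was the only one of the 12 called in either sex by edgeR or DESeq2. Of all genes tested, 19.5% were called higher and 16.8% lower in males, and 4.97% and 4.95% in females.

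Of 14 genes for signalling and transcription in Schwann cells, 12 were tested. With LLC1, 2 rose and 0 fell in females, where 4.97% of all genes tested were called higher and 4.95% lower. There, 7 of the 12 had an unadjusted p under 0.05 with edgeR, beside 4534 of the 17773 genes tested. In males 1 rose and 3 fell, where 19.5% of all genes were called higher and 16.8% lower, so that the share of the 12 called was near that of all genes. In males Lgi4, a protein that Schwann cells secrete and need to myelinate, fell (-0.79 ± 0.12, adjusted p = 7.42e-05), and so did Adam22, which encodes its receptor (-0.72 ± 0.12, adjusted p = 1.18e-04). In females the values were -0.31 ± 0.12 for Lgi4 and -0.28 ± 0.11 for Adam22, not called (adjusted p = 0.104 and 0.119). Averaged over the sexes both were called lower (-0.55 ± 0.09 and -0.50 ± 0.08). The LLC1 effect in females minus that in males was called for neither (adjusted p = 0.298 and 0.311). Yy1, a ubiquitous transcription factor, rose in both sexes (0.28 ± 0.07 in females, 0.37 ± 0.07 in males), and Tead1, a nuclear partner of Yap that muscle fibres also express, rose in females (0.35 ± 0.09). Between the sexes, 2 of the 12 were higher in female LLC1 mice, namely Lgi4 (0.63 ± 0.12) and Adam22 (0.48 ± 0.12), and 0 were lower. The background there was 6.07% of all genes called higher and 9.62% lower. In female vehicle mice 0 were higher and Tead1 was lower (-0.50 ± 0.09), where 2.95% of all genes were called higher and 3.28% lower. The list medians were 0.11 with LLC1 and 0.07 with vehicle.

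Of 13 genes of non-myelinating and injury-response Schwann cells, 9 were tested with LLC1. In males 3 rose and 0 fell, beside 19.5% of all genes called higher and 16.8% lower, so that the share called either way was near that of all genes. In females edgeR called 0 of the 9, with 3 at an unadjusted p under 0.05, and DESeq2 called 1. In males Ngfr, the low-affinity neurotrophin receptor, rose by 1.27 ± 0.34 (adjusted p = 0.00578) and Jun, a transcription factor of the injury response that many other cells express, by 0.81 ± 0.17 (adjusted p = 8.65e-04). The difference between the change in females and that in males was called for 0 of the 9 by edgeR and by DESeq2, with 2 at an unadjusted p under 0.05. Averaged over the sexes 4 rose, among them Gdnf (0.63 ± 0.19), and Gap43 fell (-0.93 ± 0.36), where 21.2% of all genes were called higher and 20.2% lower. Both were low, with group means of 0.285 to 0.649 CPM for Gdnf and 0.132 to 0.314 CPM for Gap43. Between the sexes, 2 of the 9 were higher and 1 lower in female LLC1 mice, where 6.07% and 9.62% of all genes were. In female vehicle mice 1 was higher and 0 lower, where 2.95% and 3.28% of all genes were. The list medians were 0.06 with LLC1 and 0.29 with vehicle.

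Lipid and cholesterol synthesis genes, which the sheath needs but which fat and muscle also use, were called 1 higher and 5 lower of 14 with LLC1 in males, beside the same 19.5% higher and 16.8% lower of all genes. In females edgeR called 0 of them, with 5 at an unadjusted p under 0.05, and DESeq2 called 3. In males Scd1, a fatty acid desaturase, fell by 1.59 on the log2 scale (SE 0.43, adjusted p = 0.00687) and Dhcr7, a late enzyme of cholesterol synthesis, by 1.11 (SE 0.21, adjusted p = 4.57e-04), while Fdft1, squalene synthase, rose by 0.76 ± 0.18 (adjusted p = 0.00197). Between the sexes, 2 of the 14 were called higher and 1 lower in female LLC1 mice, beside 6.07% and 9.62% of all genes. Ugt8a, which makes the galactolipids of myelin, was higher in female LLC1 mice than in male LLC1 mice (1.40 ± 0.36, adjusted p = 0.0106). In vehicle mice Ugt8a did not pass (1.10 ± 0.35, adjusted p = 0.0615). There 1 of the 14 was called higher and 0 lower in females, beside 2.95% and 3.28% of all genes.

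Markers of other cells were set beside these results. Between female and male vehicle mice, the 6 adipocyte markers summed to 291.9 to 957.3 CPM (mean 549.9) in females against 176.7 to 520.7 CPM (mean 273.8) in males, with a median log2 difference of 1.31. Of the 6, edgeR called 0, all 6 had an unadjusted p under 0.05 and DESeq2 called 5. The 4 perineurial markers summed to 16.4 ± 2.56 CPM in females against 14.8 ± 2.30 CPM in males (SD, n = 6 each). The 10 axonal ones summed to 6.44 ± 1.29 CPM in females against 5.76 ± 1.31 CPM in males, and the 6 muscle fibre markers to 148900 ± 14150 CPM in females against 171200 ± 15830 CPM in males. In LLC1 mice the adipocyte sums were 248.2 to 847.5 CPM in females against 267.0 to 362.0 CPM in males, with 1 of 6 called higher by edgeR and 3 by DESeq2. Across the 24 libraries, deviations of these sums from their group means had a Pearson r with the mean deviation of the 8 genes of -0.08 for adipocytes, 0.34 for perineurium, 0.46 for axon, 0.55 for smooth muscle cells and pericytes and -0.44 for muscle fibre. Spearman rho was -0.14, 0.29, 0.21, 0.55 and -0.37 in that order. Within groups of 6 mice, r ran from -0.41 to 0.67 for adipocytes and from -0.13 to 0.85 for perineurium. It ran from 0.21 to 0.67 for axon, 0.04 to 0.94 for smooth muscle cells and pericytes and -0.68 to -0.22 for muscle fibre. The part of any of these cell types in the sex difference was not tested.

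**Figure D3:**
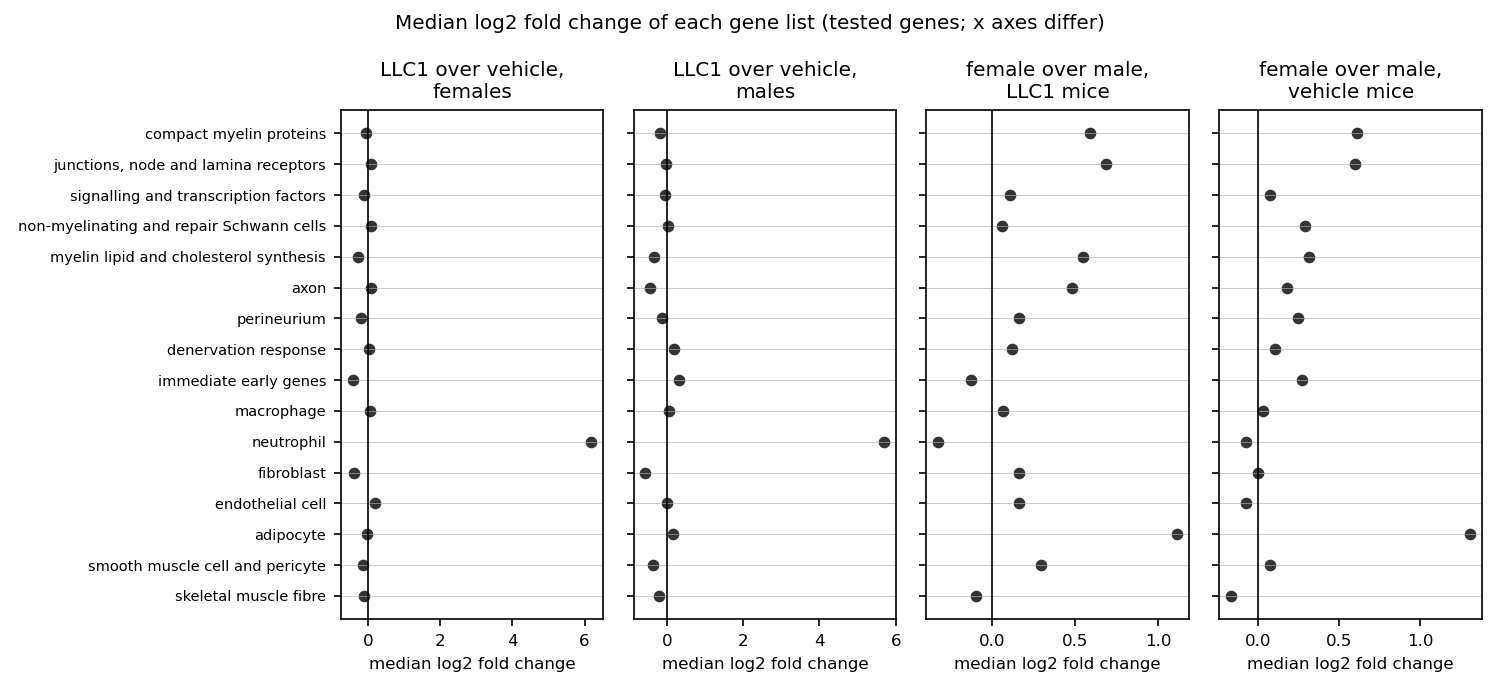
Median log2 fold change (x axis, with a scale of its own in each panel) of the tested genes of each list in 4 comparisons. In the sex panels the adipocyte list lies farthest to the right and the compact myelin and junction lists next to it, and in the LLC1 panels the neutrophil list stands far from all others.

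The genes were then compared mouse by mouse within groups, as deviations of log2 CPM from the group mean over 24 libraries, which removes the differences between sexes and treatments. Of 28 pairs, 20 were correlated at an adjusted permutation p under 0.05 (two-sided, adjusted over the 28). The share of such pairs among all genes tested was not computed, so whether 20 of 28 exceeds it is not known. Mbp and Prx moved together most closely (Pearson r = 0.97, Spearman rho = 0.95, both permutation p = 1e-05, the smallest the resampling can give), with r = 0.97 without the 2 libraries farthest from the median and 0.93 to 0.98 within each group of 6. Pmp22 and Mbp had r = 0.93 (rho = 0.92). The 15 pairs among Sox10, Pmp22, Mbp, Mag, Prx and S100b had r of 0.60 to 0.97, and 0.47 to 0.97 without the 2 farthest libraries. These 24 points share the depth and the RNA of their library.

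Egr2 stood apart: its 7 pairs had r of -0.04 to 0.35 and 0 of them passed. With Mbp its r was 0.77 in female LLC1, -0.41 in female vehicle, 0.42 in male LLC1 and -0.06 in male vehicle mice (6 mice each). The genes most like Egr2 were Bace2 (r = 0.81), Slc25a36 (0.81) and Gm16185 (0.76), none of which is in the lists. Cnp had r of 0.07 to 0.69 with the others, of which 5 of 7 passed, and the genes most like it were Ak5 (0.79), Sdhaf2 (0.79) and Atad1 (0.77), while its r with Dnajc7 was 0.56. Outside the 8, the genes most like their mean over the 24 libraries were Nfasc (r = 0.89), Ugt8a (0.89), Mal (0.89) and Drp2 (0.89). Next came Kif1a (0.89), Plekha4 (0.89), Vat1l (0.87), Cldn19 (0.85), Fa2h (0.85) and Cadm4 (0.85). Of these genes, 7 stand in the myelin, junction or lipid lists. The lists were chosen with earlier results of these data known, so this count is not an independent test. The share of all genes tested that stand in these lists was not set beside it.

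Over all 24 libraries, sexes and treatments included, the highest library held 5.48 times the Mbp of the lowest (female vehicle mouse 2-2 and male vehicle mouse 1-1), 6.25 times the Mag (female vehicle mouse 2-2 and male vehicle mouse 1-4) and 4.01 times the Pmp22 (female vehicle mouse 2-2 and male LLC1 mouse 2-4). Within female vehicle mice alone, mice 1-4, 2-2 and 2-3 were the higher ones for Mbp, at 51.9 to 77.3 CPM, where mice 1-1, 1-3 and 2-1 had 22.8 to 28.0 CPM. The same 3 mice were the higher ones for Prx and Pmp22, and those 3 were not the higher ones for Egr2, where mouse 1-1 had 2.93 CPM.

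**Figure D4:**
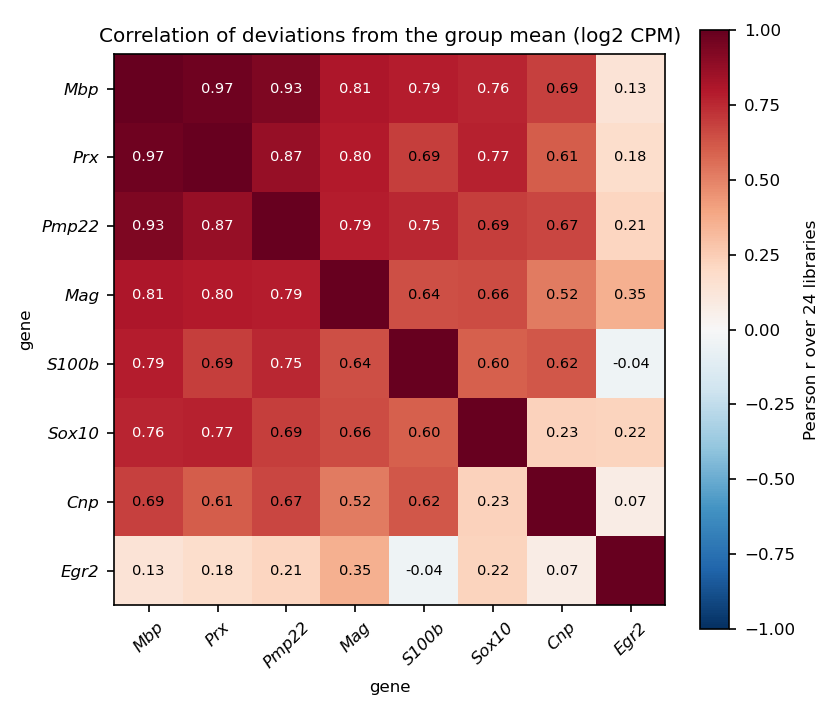
Pearson r between each pair of the 8 genes (both axes) over 24 libraries, computed on log2 CPM minus the group mean; red is positive. The block of Mbp, Prx, Pmp22, Mag, S100b and Sox10 is red throughout with r of at least 0.60, and the row of Egr2 is pale.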

How the data were processed

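Poly(A) RNA of gastrocnemius muscle from 24 mice (6 each of female LLC1, female vehicle, male LLC1 and male vehicle) was sequenced after 12 PCR cycles with a kit that keeps no strand, per the labels' protocols. The authors deposited whole-number read counts per gene, not normalized; the submitters' processing notes name CASAVA, STAR, featureCounts and mm10, and the sources used here give no versions, options or annotation release. Titles number the mice within each group; the p-values reflect the spread between libraries. Pairs of libraries within a group differed by 10.05 to 211 per degree of freedom (chi-square, 60 pairs), so none repeated another.

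The counts were tested with edgeR 4.0.16 in R 4.3.3: filterByExpr (17773 genes), TMM factors of 0.924 to 1.10, robust quasi-likelihood fit on 4 group means with 20 residual degrees of freedom, F-test, and Benjamini-Hochberg adjustment over all genes tested, called at an adjusted p under 0.05. The common biological coefficient of variation was 0.174. The fit was tested on simulated data with known changes. SE follows from the F statistic. DESeq2 1.42.0, RLE size factors, no filter, a fit of only the groups compared, blocks for the title numbers and each library left out were the alternatives. Whether mice with the same title number in different groups belong together cannot be told from the titles. Same-numbered mice, 3 to 5 pairs for each 2 groups, had correlations of their deviations from -0.27 to 0.40. Between the female groups, the median was 0.179 for mice sharing the first number, against -0.153 for others. It was also higher for mice sharing the first number between the male groups (0.0272 against -0.00851) and between the vehicle groups (0.0454 against -0.0343). The same held between the LLC1 groups (0.0201 against -0.0448) and between female LLC1 and male vehicle mice (0.0841 against -0.0312). Only between female vehicle and male LLC1 mice was it lower, at -0.0214 against 0.00435. Neither the few same-numbered pairs nor these small medians decide the question. Within-group correlations used permutation tests with scipy 1.17.1. Coordinates are those of GRCm38.p6 (mm10), and promoter windows are from RefSeq, matched by symbol for 6 of the 8 genes.

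The genes and lists were chosen with earlier results of these data known. All 8 genes are named in every comparison. From each list at most the 2 called genes with the largest rise and the 2 with the largest fall per comparison were eligible, plus the genes most alike by Pearson r. Some genes that this rule names are not reported here.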

Additional observations from a re-analysis of the deposited data

Results flagged for a closer look

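In groups of 6 mice, each of the 8 genes was searched for a highest or lowest mouse far from the others by Dixon's criterion, in 32 sets of values, of which chance would mark about 1 in 20, and 4 were marked. Male LLC1 mouse 1-5 stood above the other male LLC1 mice for Mbp (39.43 CPM, where the next was 25.68) and for Prx (18.67 CPM, where the next was 11.91). It was also the highest of its group for Pmp22 (59.03 CPM), Sox10 (1.377 CPM) and S100b (1.101 CPM). Female LLC1 mouse 2-1 stood above its group for S100b (2.415 CPM, where the next was 1.647) and was the highest there for all 8 genes. Male LLC1 mouse 1-4 stood above its group for Egr2 (1.793 CPM, where the next was 1.156). Without male LLC1 mouse 1-5 the LLC1 change of Prx in males was -0.08, where it was 0.09 with all mice, and neither was called.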

How the results depend on the processing

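Each result was recomputed under the alternatives named above. Calls of Sox10, Pmp22 and Mag between the sexes held under DESeq2, RLE size factors, no filter on low counts, only the groups compared and each library left out. In vehicle mice these calls were lost in the edgeR fit blocked on the full title number (adjusted p = 0.1366, 0.2355 and 0.2186). The number of the 8 genes called in the female against male LLC1 comparison was 5 to 8 with a library left out, beside 6. Of the 8, those called higher in female vehicle mice (5) numbered 3 with no filter, 3 with only the groups compared and 3 to 6 with a library left out, and were 3 without female vehicle mouse 1-4, 2-2 or 2-3 or male vehicle mouse 1-1, 1-2 or 1-4. Those called with LLC1 averaged over the sexes (1) numbered 0 with DESeq2, 0 with no filter and 0 to 2 with a library left out. Those in males (0) numbered 0 to 1, with 1 without male LLC1 mouse 1-4 or male vehicle mouse 1-1. In the other LLC1 comparisons the number was 0 throughout.

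Over all genes, the count called with LLC1 in females (1763) was 919 to 2283 with a library left out (919 without female LLC1 mouse 2-3, 1100 without female vehicle mouse 2-1). It was 659 to 1476 between female and male vehicle mice (1107 with all; 659 without male vehicle mouse 2-5, 731 without female vehicle mouse 2-2). Between female and male LLC1 mice (2787) it was 1606 to 3724, lowest without male LLC1 mouse 2-4 (1606), 1-5 (1638) or 2-1 (1749) or female LLC1 mouse 1-4 (1815), and 966 with only the groups compared. The LLC1 effect in females minus that in males (0 genes) gave 44 with DESeq2 and 0 to 7 with a library left out, namely 7 without male LLC1 mouse 1-4, 6 without 2-2, 1 without 2-5, and 1 and 2 without male vehicle mouse 1-1 and 1-3.

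A replicate block joins mice that share a number in their titles, and whether those mice belong together is not known. Blocked on the full number, 480 genes were called with LLC1 in females, 3607 in males, 3526 averaged over the sexes and 269 between female and male vehicle mice, of which 0 were among the 8, while 1 of the 8 (S100b) was called with LLC1 in males. Averaged over the sexes, the full block called S100b (-0.70, adjusted p = 0.0299 with edgeR) and not Cnp (-0.19, adjusted p = 0.0604). Blocked on the first number, 6 genes were called for the LLC1 effect in females minus that in males and 2 of the 8 (Cnp and S100b) with LLC1 averaged over the sexes. Under the full block, uncalled values changed sign: Egr2 with LLC1 in females (0.104) and averaged (0.0168), Mbp in males (-0.187) and averaged (-0.0459), Prx in males (-0.293) and averaged (-0.0816), and the effect in females minus males of Mbp (0.282) and Pmp22 (0.175).

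Other uncalled LLC1 values also changed sign with a library left out, over these ranges: in females Mag -0.294 to 0.0299 and Pmp22 -0.26 to 0.0621; in males Pmp22 -0.13 to 0.0288, Prx -0.0752 to 0.243 and Sox10 -0.29 to 0.000721; averaged over the sexes Pmp22 -0.151 to 0.0111. The effect in females minus that in males ran over -0.152 to 0.25 for Egr2, -0.0725 to 0.256 for Mag, -0.257 to 0.132 for Mbp, -0.226 to 0.102 for Pmp22, -0.0366 to 0.284 for Prx and -0.109 to 0.182 for Sox10. The cause was not tested. Depth limits Mag, S100b, Egr2 and Sox10 most, at 10 to 93, 15 to 160, 22 to 136 and 22 to 122 counts per library.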
